A study of Mus musculus with 9 samples.

Results

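The antioxidant and Nrf2 pathway genes described here are 42 genes of the mouse bladder transcriptome, chosen by symbol from what is known of their function: the transcription factor Nrf2 (gene Nfe2l2) and its inhibitor Keap1, enzymes that Nrf2 is known to induce, and the glutathione, thioredoxin, superoxide, peroxide and metal-binding genes around them. The choice was made with earlier results of these data known, so shares of members set beside those of all tested genes are descriptions. All 42 were found among the 53342 genes of the deposited table, and all 42 were among the 19314 genes with enough counts to be tested. The study asked how SB431542, an inhibitor of the TGF-β type I receptor kinase, acts on cystitis caused by hydrogen peroxide. RNA was taken from the bladder on day 10 in 3 groups of 3 libraries from wild-type C57BL/6N female mice that were 8 weeks old at infusion. H2O2/SB431542-treated mice had 1.5% H2O2 infused into the bladder on day 0 and SB431542 injected into the peritoneum on days 0 and 4. H2O2/saline-treated mice had the same infusion and saline injections in place of the inhibitor. Control mice had no H2O2. The sources conflict on what else was done to them, since the labels call these animals untreated, whereas the study's methods give control bladders an infusion of saline. The samples were pieces of whole bladder wall, so urothelium, muscle, vessels and immune cells were measured together, and fewer cells of a type and less RNA per cell cannot be told apart.

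Nrf2 is the main switch of the cell's response to oxidants and electrophiles. At rest Keap1 holds it and passes it to degradation. When cysteines of Keap1 are oxidised, Nrf2 accumulates in the nucleus and, paired with a small Maf protein, binds antioxidant response elements in front of its target genes. The switch therefore works mostly through the protein, and the mRNA of Nfe2l2 need not follow it. The targets make glutathione and NADPH, reduce peroxides, detoxify quinones and electrophiles, and break down heme. The bladder lining meets oxidants and electrophiles concentrated in urine, and glutathione transferases are among the enzymes it uses against them.

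No member passed the threshold in any of the 3 comparisons (edgeR quasi-likelihood test, Benjamini-Hochberg adjusted p under 0.05), and very few genes of the whole table did. In H2O2/saline against control 0 of 42 members passed, with 0.0518% of all tested genes. In H2O2/SB431542 against H2O2/saline 0 of 42 passed, with 0% of all tested genes. In H2O2/SB431542 against control 0 of 42 passed, with 0.0155% of all tested genes. DESeq2 called 4, 0 and 0 members in the same order, with 8.31%, 0.146% and 1.01% of the genes for which it gave an adjusted p, and limma-voom called 0, 0 and 0 members, with 0.0362%, 0% and 0.0155% of all tested genes. Every difference given below that did not pass is a measured value and not a change. Each pair of these comparisons shares the libraries of a group, so none of them is independent of the others.

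H2O2/saline 1 stood apart from the other libraries of its group. It lay at -42.4 on the first principal component, among the controls at -61.5 to -38.8, whereas H2O2/saline 2 and 3 lay at 86.4 and 111.6 and the H2O2/SB431542 libraries at -42.3, 26.5 and 10.1. Of the 42 members 20 had a level in H2O2/saline 1 within the range of the 3 controls, against 13 in H2O2/saline 2 and 10 in H2O2/saline 3. Over all tested genes the corresponding shares were 49.9%, 40.1% and 38.6%. H2O2/SB431542 libraries had 16, 20 and 16 members within that range, and 52.9%, 51.7% and 55.2% of all tested genes. On the second principal component the libraries numbered 1 lay together, at 42.8, 54.5 and 34.2 in H2O2/SB431542, H2O2/saline and control. The other 6 libraries lay at -84.1 to 15.35. More genes were detected in the libraries numbered 1, 26475 to 28154 against 21810 to 24524. Whether the H2O2 infusion took effect in the animal of H2O2/saline 1, and whether that library carries the right label, was not tested. Nor was it tested whether its position comes from something shared by the libraries numbered 1. Every H2O2/saline mean and fold change with all libraries therefore includes a library open to these doubts. H2O2/saline 1 was singled out by its likeness to the controls in these same data. Leaving it out therefore tends to widen the difference from control and to narrow the spread of its group. Adjusted p values without it, also those from replicates 2 and 3 alone, are a description and not further support. The libraries numbered 1 also held more red-blood-cell RNA, at 1723, 1697 and 1828 summed CPM (counts scaled by library total and TMM factor) of the 5 genes on that list in H2O2/SB431542 1, H2O2/saline 1 and control 1, against 549 to 800 in the other 6 libraries. Fat-cell markers separated the same libraries by their median but not by their summed CPM. The median log2 level of the 5 tested markers, relative to the control mean, was 2.03, 3.16 and 3.63 in the same libraries. In the other 6 libraries it was -1.90 to -0.21. The summed CPM of the fat-cell list was 307, 294 and 296 in H2O2/SB431542 libraries, 290, 295 and 319 in H2O2/saline libraries and 399, 369 and 475 in control libraries. Adipoq, the fat-cell hormone adiponectin, had 3.19, 0 and 0.137 CPM in H2O2/SB431542 libraries, 9.79, 0 and 0 CPM in H2O2/saline libraries and 14.2, 0.634 and 0 CPM in control libraries, and Cidec and Plin1, proteins of the lipid droplet, were likewise highest in the libraries numbered 1. All 5 tested adipocyte markers were negative against control in both H2O2 groups, with medians of -1.42 for H2O2/SB431542 and -0.52 for H2O2/saline, and their part and that of red-blood-cell RNA in the levels of the members was not tested. Total counts were 37329213 to 41055328 per library. The least abundant member had 494 counts in its lowest library, so counting error was small beside the spread between libraries. Umbrella-cell markers (summed CPM 7594 to 21593) and smooth muscle markers (21859 to 49176) were abundant in all 9 libraries.

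**Figure D1:**
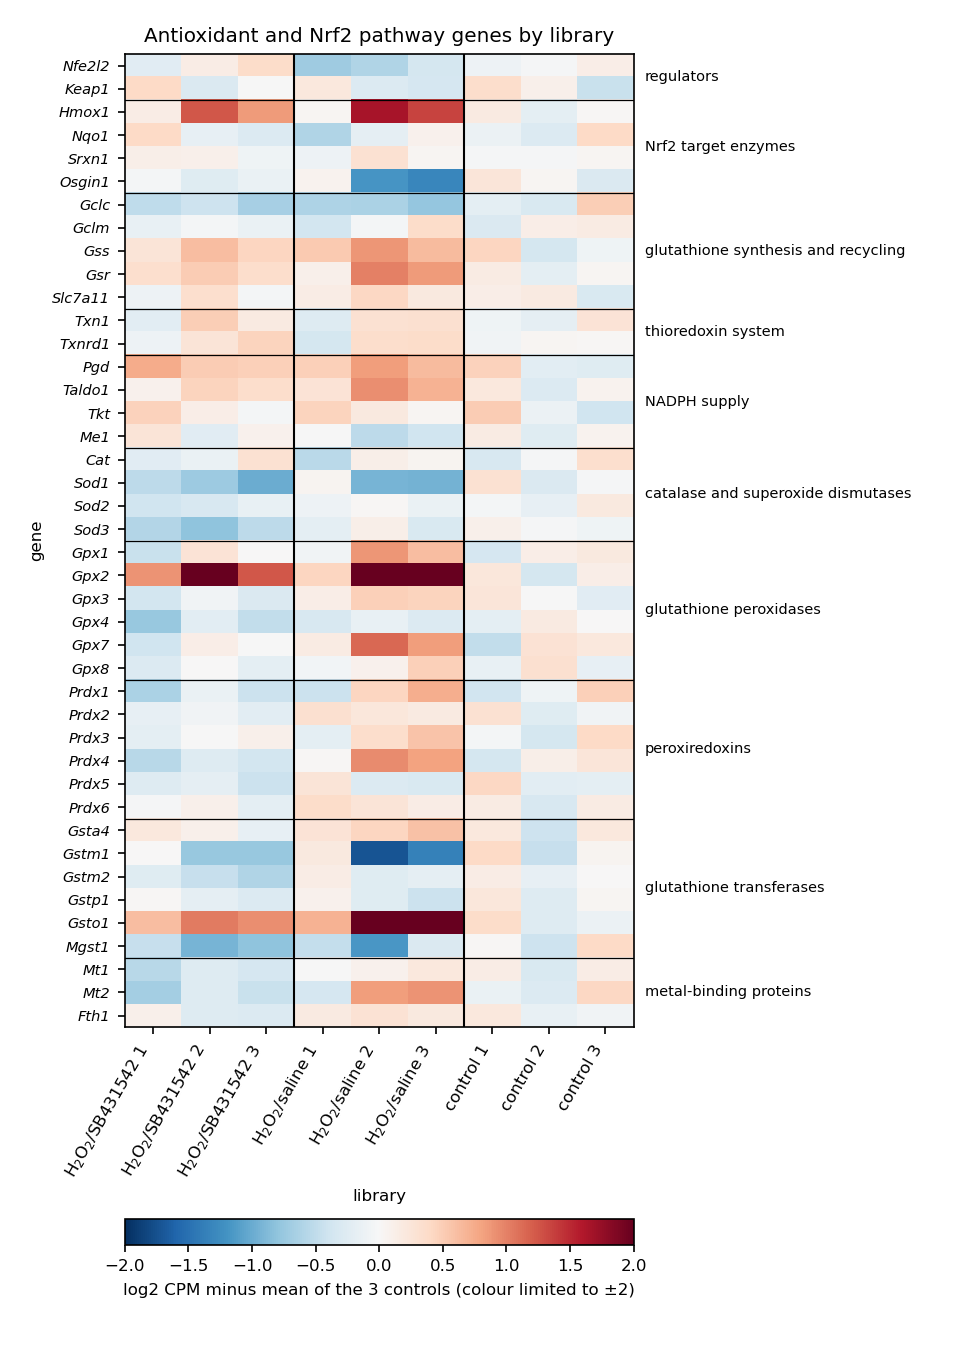
Level of each of the 42 genes (rows, grouped by role) in each of the 9 libraries (columns), as log2 CPM minus the mean of the 3 control libraries, red higher and blue lower, with colours limited to 2 in either direction. Gpx2, Gsto1 and Hmox1 are darkest red in H2O2/saline 2 and 3, where Gstm1 and Osgin1 are blue, and H2O2/saline 1 resembles the controls in all 5 rows except a paler red for Gsto1.

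The mRNA of Nrf2 itself had its lowest values in H2O2/saline bladders. Nfe2l2 had 56.6, 73.5 and 84.9 CPM in H2O2/SB431542 libraries, 40.2, 43.2 and 51.5 CPM in H2O2/saline libraries and 61.3, 64.9 and 72.2 CPM in control libraries. All 3 H2O2/saline libraries, replicate 1 included, were below every library of both other groups, while the H2O2/SB431542 and control libraries overlapped. The log2 fold change was -0.56 ± 0.19 (SE) for H2O2/saline against control (edgeR adjusted p = 0.162) and 0.67 ± 0.19 for H2O2/SB431542 against H2O2/saline (edgeR adjusted p = 0.528). Keap1, the adaptor that sends Nrf2 to degradation, had 126, 77.9 and 95.3 CPM in H2O2/SB431542 libraries, 111, 79.1 and 75.2 CPM in H2O2/saline libraries and 121, 102 and 70.2 CPM in control libraries. The 3 groups of Keap1 values overlapped fully. Its log2 fold changes were -0.15 and 0.18 for the same comparisons, each with a 95% interval that includes 0 (-0.70 to 0.40 and -0.37 to 0.73), and their signs changed without control 1 and without H2O2/SB431542 1.

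The Nrf2 target enzymes went different ways. Hmox1, heme oxygenase 1, which breaks heme into biliverdin, iron and carbon monoxide, had 32.4, 69.8 and 53.2 CPM in H2O2/SB431542 libraries, 30.04, 92.4 and 75.3 CPM in H2O2/saline libraries and 33.1, 25.6 and 29.99 CPM in control libraries. H2O2/saline 2 and 3 exceeded every control, whereas H2O2/saline 1 and H2O2/SB431542 1 sat among the controls, so the groups overlapped. The log2 fold change of H2O2/saline against control was 1.16 ± 0.37 (edgeR adjusted p = 0.133, DESeq2 adjusted p = 0.0286). Macrophages, which take up red cells, are a known site of Hmox1 expression. The 7 macrophage markers summed to 279 to 519 CPM in H2O2/SB431542 libraries, 375 to 689 CPM in H2O2/saline libraries and 227 to 283 CPM in control libraries, with 5 of 7 markers positive in H2O2/saline against control (48.6% of all tested genes were) and 4 of them at an unadjusted p under 0.05 (9.88% of all tested genes were). None of the 7 was at 0 in any library, and their part in the level of Hmox1 was not tested.

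Nqo1, Srxn1 and Osgin1 are outside the rule for printing every library and were added after their values were seen. Nqo1, the quinone reductase most often used as a readout of Nrf2, had 101, 68.2 and 63.1 CPM in H2O2/SB431542 libraries, 50.1, 67.5 and 80.9 CPM in H2O2/saline libraries and 70.0, 63.4 and 100.1 CPM in control libraries. Srxn1, sulfiredoxin, which repairs overoxidised peroxiredoxins, had 40.7, 40.4 and 35.3 CPM in H2O2/SB431542 libraries, 34.8, 46.2 and 38.5 CPM in H2O2/saline libraries and 36.9, 37.0 and 38.6 CPM in control libraries. Both genes overlapped in every pair of groups, and the 95% interval for H2O2/saline against control ran from -0.79 to 0.32 for Nqo1 and from -0.29 to 0.46 for Srxn1 on the log2 scale, which leaves out a doubling of either mRNA on day 10. For H2O2/SB431542 against H2O2/saline the value of Nqo1 was 0.23 with all libraries and -0.15 with replicates 2 and 3 of each group alone, so it had no settled direction. Osgin1, an oxidative stress-induced growth inhibitor, had 246, 215 and 232 CPM in H2O2/SB431542 libraries, 266, 112 and 102 CPM in H2O2/saline libraries and 301, 262 and 208 CPM in control libraries. H2O2/saline 2 and 3 were below all 7 other libraries, and H2O2/saline 1 was not. With all libraries the log2 fold change of H2O2/saline against control was -0.68 ± 0.32 (edgeR adjusted p = 0.293), and without H2O2/saline 1 it was -1.31 ± 0.21 (edgeR adjusted p = 0.00264).

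Glutathione genes split between the enzymes that make the tripeptide. Gclc, the catalytic subunit of glutamate-cysteine ligase and the rate-limiting step, had 35.3, 37.6 and 31.7 CPM in H2O2/SB431542 libraries, 32.9, 32.2 and 29.5 CPM in H2O2/saline libraries and 44.0, 40.6 and 70.9 CPM in control libraries. Every library of both H2O2 groups was below every control, and control 3 stood well above the other controls. The log2 fold changes against control were -0.72 ± 0.22 for H2O2/saline (edgeR adjusted p = 0.122, DESeq2 adjusted p = 0.0408) and -0.57 ± 0.22 for H2O2/SB431542 (edgeR adjusted p = 0.548). Gclm, the modifier subunit of the same ligase, had a log2 fold change of 0.01 with an interval of -0.44 to 0.46 for H2O2/saline against control, and its sign flipped under other scalings.

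Gss, glutathione synthetase, which adds the glycine, had 66.6, 84.8 and 74.6 CPM in H2O2/SB431542 libraries, 79.5, 102 and 85.9 CPM in H2O2/saline libraries and 75.2, 43.4 and 52.5 CPM in control libraries. All H2O2/saline libraries were above all controls, with a log2 fold change of 0.65 ± 0.22 (edgeR adjusted p = 0.152). Exons of Gss overlap those of Acss2 on the other strand in the GENCODE annotation of GRCm38, and neither the labels nor the methods say whether counting used strand, so its reads may be shared. The same holds for Keap1, Gclm, Me1 (30 bases), Prdx2, Prdx5 and Mt2, whose exons overlap genes on the other strand. Gclm also shares 244 exon bases with Gm6061 on the same strand, which counting by strand would not separate. Gsr, glutathione reductase, which returns oxidised glutathione to its reduced form with NADPH, had 69.9, 78.4 and 70.9 CPM in H2O2/SB431542 libraries, 59.4, 111 and 99.8 CPM in H2O2/saline libraries and 61.9, 48.2 and 56.6 CPM in control libraries. Here H2O2/saline 1 lay among the controls while H2O2/saline 2 and 3 were the highest of all, and every H2O2/SB431542 library was above every control. For H2O2/saline against control its log2 fold change was 0.70 ± 0.23 (edgeR adjusted p = 0.138). Slc7a11, the cystine importer, had log2 fold changes of 0.24 and -0.18 for H2O2/saline against control and H2O2/SB431542 against H2O2/saline, with overlapping groups. Txn1, thioredoxin, and Txnrd1, its reductase, lay between 0.03 and 0.16 in the same comparisons, also with overlapping groups, and for H2O2/SB431542 against H2O2/saline both were negative without H2O2/saline 1 (-0.10 and -0.11).

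Genes of the pentose phosphate pathway, which regenerates the NADPH that glutathione reductase and thioredoxin reductase consume, had their highest mean in H2O2/saline bladders. Taldo1, transaldolase, had 403, 521 and 486 CPM in H2O2/SB431542 libraries, 462, 726 and 613 CPM in H2O2/saline libraries and 441, 313 and 399 CPM in control libraries. Pgd, phosphogluconate dehydrogenase, had 475, 400.4 and 394 CPM in H2O2/SB431542 libraries, 393, 504 and 440.3 CPM in H2O2/saline libraries and 389, 244 and 238 CPM in control libraries. For both genes every H2O2/saline library was above every control, and for Pgd every H2O2/SB431542 library was too. Control 1 of Pgd, at 389 CPM, came close to the lowest library of each H2O2 group. The log2 fold changes of H2O2/saline against control were 0.64 ± 0.22 for Taldo1 (edgeR adjusted p = 0.152) and 0.62 ± 0.22 for Pgd (edgeR adjusted p = 0.171). Tkt, transketolase, was at 0.19 and Me1, the cytosolic malic enzyme and another NADPH source, at -0.31, both with overlapping groups.

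The glutathione peroxidases, most of which reduce peroxides with glutathione, held the member with the highest fold change. Gpx2, the epithelial form, had 68.4, 202 and 87.0 CPM in H2O2/SB431542 libraries, 49.5, 348 and 280 CPM in H2O2/saline libraries and 42.9, 28.6 and 40.2 CPM in control libraries. Every library of both H2O2 groups was above every control, but H2O2/saline 1 only slightly so, and it was also below all 3 H2O2/SB431542 libraries. The mean of H2O2/saline was 6.07-fold that of control in the fit, a log2 fold change of 2.601 ± 0.60 (95% interval 1.30 to 3.90, edgeR adjusted p = 0.0679). With the replicate number as a block, the log2 fold change was 2.22 ± 0.53 (edgeR adjusted p = 0.0415). That block rests only on correlations within these same counts. DESeq2 without the block gave 2.59 (adjusted p = 0.00971). H2O2/SB431542 against control gave 1.68 ± 0.58 (edgeR adjusted p = 0.463), and against H2O2/saline -0.92 ± 0.57 (edgeR adjusted p = 0.663).

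Gpx7, a peroxidase of the endoplasmic reticulum, had 13.9, 20.3 and 18.3 CPM in H2O2/SB431542 libraries, 20.6, 40.9 and 33.1 CPM in H2O2/saline libraries and 13.1, 22.6 and 21.3 CPM in control libraries. All H2O2/SB431542 libraries were below all H2O2/saline libraries, with the gap at H2O2/saline 1 small, and both overlapped or touched the control range. The log2 fold change was 0.73 ± 0.29 for H2O2/saline against control (edgeR adjusted p = 0.211, and 0.0363 with the replicate block) and -0.85 ± 0.29 for H2O2/SB431542 against H2O2/saline (edgeR adjusted p = 0.528). Gpx3, the secreted plasma form, had 141, 173 and 149.6 CPM in H2O2/SB431542 libraries, 199, 254 and 248 CPM in H2O2/saline libraries and 215, 181 and 156 CPM in control libraries. Again no H2O2/SB431542 library reached any H2O2/saline library (log2 fold change -0.60 ± 0.19, edgeR adjusted p = 0.528).

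Gpx4, which reduces lipid peroxides in membranes and so guards against ferroptosis, had its highest values in controls, with 434, 636 and 524 CPM in H2O2/SB431542 libraries, 589, 662 and 608 CPM in H2O2/saline libraries and 644, 830.2 and 741 CPM in control libraries. All H2O2/SB431542 libraries were below all controls, though H2O2/SB431542 2 came close to control 1 (log2 fold change -0.48 ± 0.19, edgeR adjusted p = 0.594). All 6 peroxidases had a negative log2 fold change for H2O2/SB431542 against H2O2/saline, from -0.92 to -0.22 with a median of -0.58, and remained all negative under the 4 other scalings and fits of all libraries compared for this. Over all tested genes 48.3% were negative and the median was 0.02. For H2O2/saline against control 5 of the 6 were positive, with a median of 0.43 against -0.02 over all tested genes.

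The peroxiredoxins, most of which reduce peroxides with thioredoxin, were also all negative for H2O2/SB431542 against H2O2/saline. Their median was -0.35, with the most negative value for Prdx4. Prdx4, the form of the endoplasmic reticulum, had 32.5, 40.3 and 37.2 CPM in H2O2/SB431542 libraries, 48.7, 92.2 and 84.0 CPM in H2O2/saline libraries and 37.5, 51.8 and 56.9 CPM in control libraries. All H2O2/SB431542 libraries were below all H2O2/saline libraries, and H2O2/saline 1 was inside the control range. The log2 fold change of H2O2/SB431542 against H2O2/saline was -1.03 ± 0.25 (95% interval -1.58 to -0.49, edgeR adjusted p = 0.528), and without H2O2/saline 1 it was -1.22 ± 0.21 (edgeR adjusted p = 0.0248). Prdx1, the abundant cytosolic form, had 116, 164 and 133 CPM in H2O2/SB431542 libraries, 132, 241 and 296 CPM in H2O2/saline libraries and 138, 168 and 248 CPM in control libraries. The groups of Prdx1 overlapped in every comparison (log2 fold change of H2O2/SB431542 against H2O2/saline -0.70 ± 0.30, edgeR adjusted p = 0.550). Without H2O2/saline 1 the comparison left 5 of 6 peroxiredoxins negative, and Prdx5, at -0.20 with all libraries, was at 0.04.

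Superoxide dismutases, which turn superoxide into hydrogen peroxide, and catalase, which splits it, showed no positive value against control with all libraries, though some signs changed when a library was left out. For H2O2/saline Cat was positive without H2O2/saline 1, and Cat and Sod2 were without control 3. For H2O2/SB431542 Cat was positive without control 3, H2O2/SB431542 1 or H2O2/SB431542 2 (0.17, 0.07 and 0.02). Sod3, the extracellular form, had 50.3, 43.1 and 52.1 CPM in H2O2/SB431542 libraries, 65.9, 81.8 and 61.0 CPM in H2O2/saline libraries and 80.9, 74.2 and 71.2 CPM in control libraries. All H2O2/SB431542 libraries were below all libraries of both other groups, which overlapped each other. Its log2 fold change was -0.64 ± 0.18 against control (edgeR adjusted p = 0.370) and -0.52 ± 0.18 against H2O2/saline (edgeR adjusted p = 0.528). Sod1, the cytosolic copper-zinc form, had 596, 515 and 432 CPM in H2O2/SB431542 libraries, 892, 450.3 and 442 CPM in H2O2/saline libraries and 1058, 700.1 and 847 CPM in control libraries. Only H2O2/saline 1 among the 6 libraries of the H2O2 groups reached the control range, and the log2 fold change of H2O2/saline against control was -0.55 ± 0.28 with it (edgeR adjusted p = 0.345) and -1.01 ± 0.23 without it (edgeR adjusted p = 0.0186). For H2O2/SB431542 against H2O2/saline Sod1 was at -0.21 with that library and at 0.25 without it. Sod2, the mitochondrial form, and Cat, catalase, were at -0.08 and -0.11 for H2O2/saline against control, with overlapping groups. For H2O2/SB431542 against H2O2/saline Sod2 was at -0.22 and Cat at 0.09, the latter with overlap. The Sod2 groups nearly touched, with 79.6 CPM in H2O2/SB431542 3 and 80.6 CPM in H2O2/saline 3.

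Among the glutathione transferases, which couple glutathione to electrophiles, Gsto1 and Gstm1 had opposite signs. Gsto1, the omega class enzyme that also reduces dehydroascorbate, had 849, 1137 and 1054 CPM in H2O2/SB431542 libraries, 904, 3715 and 3216 CPM in H2O2/saline libraries and 714, 466 and 514 CPM in control libraries. Every library of both H2O2 groups was above every control, and H2O2/saline 2 and 3 were far above all others, whereas H2O2/saline 1 lay within the H2O2/SB431542 range. H2O2/saline was 4.62-fold control in the fit, a log2 fold change of 2.21 ± 0.42 (95% interval 1.30 to 3.12, edgeR adjusted p = 0.0600, and 0.0261 with the replicate block), and DESeq2 gave an adjusted p of 4.98e-06. H2O2/SB431542 against H2O2/saline gave -1.37 ± 0.41 (edgeR adjusted p = 0.528). Leaving out H2O2/saline 1 gave 2.57 ± 0.24 against control (edgeR adjusted p = 0.000232) and -1.73 ± 0.23 for H2O2/SB431542 against H2O2/saline (edgeR adjusted p = 0.0119), and leaving out control 1 gave 2.41 for H2O2/saline against control (edgeR adjusted p = 0.0454).

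Gstm1, the mu class enzyme with the most counts of all members, had 14995, 8843 and 8830 CPM in H2O2/SB431542 libraries, 17049, 4476 and 5805 CPM in H2O2/saline libraries and 19614, 10868 and 15474 CPM in control libraries. In each group replicate 1 was the highest, and H2O2/saline 2 and 3 were the lowest of all 9. For H2O2/saline against control its log2 fold change was -0.75 ± 0.45 with all libraries (edgeR adjusted p = 0.423) and -1.62 ± 0.32 without H2O2/saline 1 (edgeR adjusted p = 0.00844). Gstm2, a close relative whose reads may be shared with Gstm1 depending on the counting rule, had 135, 117 and 106 CPM in H2O2/SB431542 libraries, 179, 136 and 142 CPM in H2O2/saline libraries and 179, 144 and 162 CPM in control libraries. Its H2O2/SB431542 libraries were below all libraries of the other groups (log2 fold change against control -0.44 ± 0.18, edgeR adjusted p = 0.605). H2O2/SB431542 1 nearly reached H2O2/saline 2, at 135.5 against 136.3 CPM.

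Mgst1, the microsomal transferase, had 111, 80.6 and 87.9 CPM in H2O2/SB431542 libraries, 111, 68.3 and 126 CPM in H2O2/saline libraries and 155, 115 and 203 CPM in control libraries. Its H2O2/SB431542 libraries were below all controls, and the H2O2/saline group overlapped both. The log2 fold changes against control were -0.76 ± 0.26 for H2O2/SB431542 (edgeR adjusted p = 0.471) and -0.64 ± 0.26 for H2O2/saline (edgeR adjusted p = 0.235). Gsta4, which acts on the lipid aldehyde hydroxynonenal, was at 0.41 for H2O2/saline against control and -0.38 for H2O2/SB431542 against H2O2/saline, without overlap in either. Gstp1 was between -0.19 and 0.04.

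**Figure D2:**
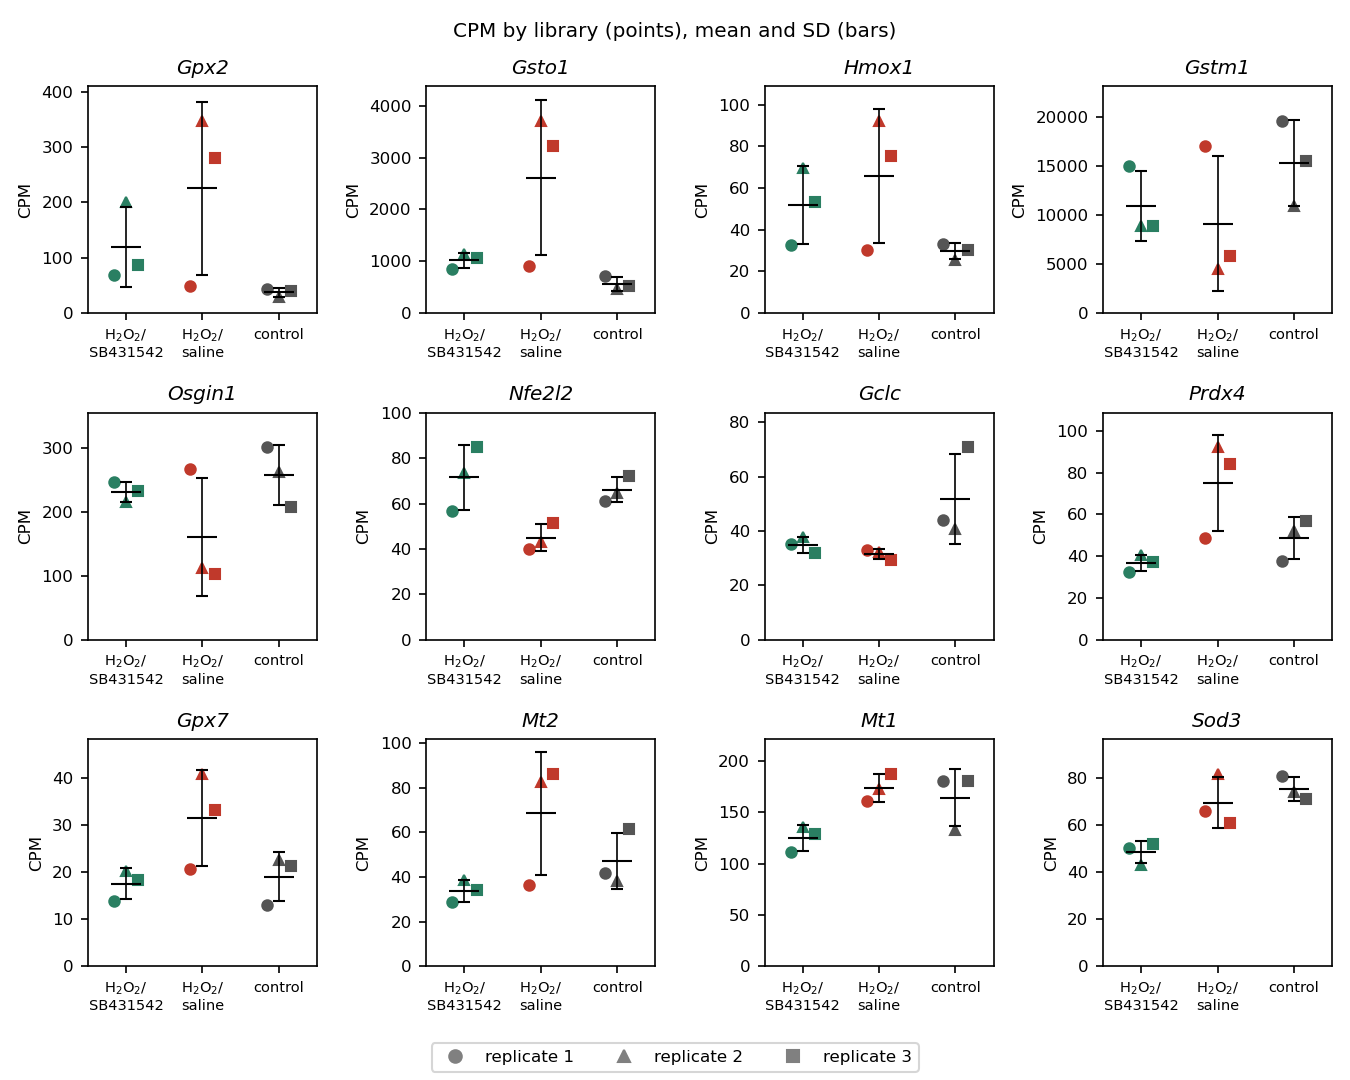
CPM of 12 genes in each library (circle, triangle and square for replicates 1, 2 and 3) with the group mean and SD (n = 3 each) as black bars, for H2O2/SB431542, H2O2/saline and control from left to right. The circle of H2O2/saline lies apart from the triangle and square of the same group for Gpx2, Gsto1, Hmox1, Gstm1 and Osgin1, but not for Nfe2l2 or Gclc.

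The metallothioneins bind zinc and copper through cysteines and take up oxidants with the same groups. Mt2 had 28.9, 38.6 and 34.0 CPM in H2O2/SB431542 libraries, 36.6, 82.6 and 86.2 CPM in H2O2/saline libraries and 41.9, 38.1 and 61.6 CPM in control libraries. Mt1 had 111, 136 and 129 CPM in H2O2/SB431542 libraries, 161, 172 and 188 CPM in H2O2/saline libraries and 180.5, 133 and 181 CPM in control libraries. For Mt1 no H2O2/SB431542 library reached any H2O2/saline library, while for Mt2 H2O2/saline 1 was inside the H2O2/SB431542 range. The log2 fold changes of H2O2/SB431542 against H2O2/saline were -1.02 ± 0.31 for Mt2 (edgeR adjusted p = 0.528) and -0.47 ± 0.18 for Mt1 (edgeR adjusted p = 0.528), and without H2O2/saline 1 Mt2 was at -1.28 ± 0.23 (edgeR adjusted p = 0.0316). Fth1, the ferritin heavy chain that stores iron and for which processed pseudogenes are known, was at 0.21 for H2O2/saline against control and at -0.36 for H2O2/SB431542 against H2O2/saline, where the groups did not overlap.

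Metallothionein genes are also induced by glucocorticoids and in the acute phase response, and genes of both kinds were highest in H2O2/saline 2 and 3. The 7 glucocorticoid-responsive genes summed to 130.3 to 321 CPM in H2O2/SB431542 libraries, 128 to 511 CPM in H2O2/saline libraries and 132 to 215 CPM in control libraries. For H2O2/SB431542 against H2O2/saline 6 of 7 were negative, where 48.3% of all tested genes were. The 7 acute phase genes summed to 31.4 to 54.7 CPM in H2O2/SB431542 libraries, 35.6 to 144 CPM in H2O2/saline libraries and 18.1 to 33.8 CPM in control libraries. Of these genes 6 could be tested, and in the same comparison 6 of 6 were negative. Their part in the levels of Mt1 and Mt2 was not tested.

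To show what the promoters of these genes hold, the 300 bases around each start (250 before it and 50 after) were taken from RefSeq for the GRCm38.p6 assembly, which differs from the GRCm39 build of the counts, so genes were matched by symbol. Of the 42 members 36 matched, with 46 promoters. Hmox1, Gclc, Gsr, Gsta4, Prdx6 and Sod3 had no promoter entry and were not scanned. The core of the antioxidant response element, TGACNNNGC, read on both strands, was present in 10 of the 46 member promoters (21.7%) and in 12.4% of all 32851 promoters. The 10 genes are printed because they are the scanned members in which the letters of Nrf2's own site stand near the start. Each line gives the core in capitals with 8 bases on either side, in the orientation of the motif.
Nfe2l2, chr2:75704887-75704911, minus strand: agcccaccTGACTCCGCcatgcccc
Srxn1, chr2:152105544-152105568, minus strand: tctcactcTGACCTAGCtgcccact
Gclm, chr3:122245415-122245439, minus strand: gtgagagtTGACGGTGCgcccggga
Prdx1, chr4:116685458-116685482, minus strand: acgggggaTGACTCAGCgctttccc
Pgd, chr4:149166063-149166087, minus strand: ttcagagcTGACATTGCactgatcg
Mgst1, chr6:138140463-138140487, minus strand: ccgcctccTGACCGTGCcaagcccc
Mt2, chr8:94172531-94172555, plus strand: agggggtgTGACTCAGCgcgggggg
Me1, chr9:86695904-86695928, minus strand: tgccgccgTGACTCAGCgcttctcg
Txnrd1, chr10:82859106-82859130, minus strand: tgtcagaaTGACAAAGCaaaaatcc
Sod1, chr16:90220698-90220722, minus strand: cctgagtcTGACCACGCccaccttg

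The same core letters stood in Prdx1, Mt2 and Me1, TGACTCAGC, at 133, 79 and 6 bases before the start, whereas Srxn1 and Pgd had theirs just after it. The 10 genes did not lie in a single direction. For H2O2/saline against control 6 were positive and 4 negative, from -0.64 (Mgst1) to 0.62 (Pgd) with a median of 0.05, and for H2O2/SB431542 against H2O2/saline 3 were positive and 7 negative, from -1.02 (Mt2) to 0.67 (Nfe2l2) with a median of -0.10. Gpx2 and Gsto1 had no match in this window. A match of letters is a description and not a bound site, and the element may lie outside the window.

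The whole promoters of Mt2 and Mt1 are shown because these neighbouring genes lay in the same direction in H2O2/SB431542 against H2O2/saline. Capitals mark the antioxidant core (TGACNNNGC) and the core of the metal response element (TGCACNC or TGCGCNC), on either strand. The metal core was present in 25.7% of all promoters and in 19.6% of the member promoters, those of 8 genes, and it overlapped the antioxidant core only in Gclm.
Mt2, chr8:94172368-94172667, plus strand: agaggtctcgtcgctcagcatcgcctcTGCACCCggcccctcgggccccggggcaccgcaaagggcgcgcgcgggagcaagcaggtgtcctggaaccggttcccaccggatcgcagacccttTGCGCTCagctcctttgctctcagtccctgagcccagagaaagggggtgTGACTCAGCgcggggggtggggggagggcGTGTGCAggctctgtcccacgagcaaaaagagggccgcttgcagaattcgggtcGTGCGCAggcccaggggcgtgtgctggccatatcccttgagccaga
Mt1, chr8:94178839-94179138, plus strand: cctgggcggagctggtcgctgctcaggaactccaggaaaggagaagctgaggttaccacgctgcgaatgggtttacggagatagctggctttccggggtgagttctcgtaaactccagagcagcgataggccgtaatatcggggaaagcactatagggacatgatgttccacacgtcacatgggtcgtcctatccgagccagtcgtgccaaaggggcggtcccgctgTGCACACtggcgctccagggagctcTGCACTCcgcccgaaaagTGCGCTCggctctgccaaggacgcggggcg
Within this window Mt2 held 4 metal cores and 1 antioxidant core. Mt1 held 3 metal cores, 2 of them after the RefSeq start used here, and no antioxidant core. Either gene may hold further cores outside the window, so the difference between them holds for these 300 bases only.

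Counted over all members, H2O2/saline against control gave 26 positive (48.6% of all tested genes were positive) and 16 negative log2 fold changes, with a median of 0.17 against -0.02 over all tested genes. At an unadjusted p under 0.05 there were 12 members (28.6%), against 17.8% of all tested genes. Positive were 9 of these, Gpx2, Gsto1, Hmox1, Gpx7, Gsr, Gss, Taldo1, Pgd and Prdx4, against 9.88% of all tested genes. Negative were 3, Gclc, Mgst1 and Nfe2l2, against 7.96%. The groups did not overlap for 8 members (19%), near the 18.7% of all tested genes. With the replicate block 3 members passed, Gpx2, Gpx7 and Gsto1, with 4.79% of all tested genes. Without H2O2/saline 1 the threshold was passed by 11 members, with 9.43% of all tested genes, 8 of them higher (Gpx2, Gsto1, Hmox1, Gpx7, Gsr, Prdx4, Mt2 and Taldo1, against 5.52%) and 3 lower (Gstm1, Osgin1 and Sod1, against 3.91%). Without control 1 it was passed by Gsto1 alone, with 1.3% of all tested genes, and with replicates 2 and 3 of each group alone by 14 members, with 13.1% of all tested genes.

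**Figure D3:**
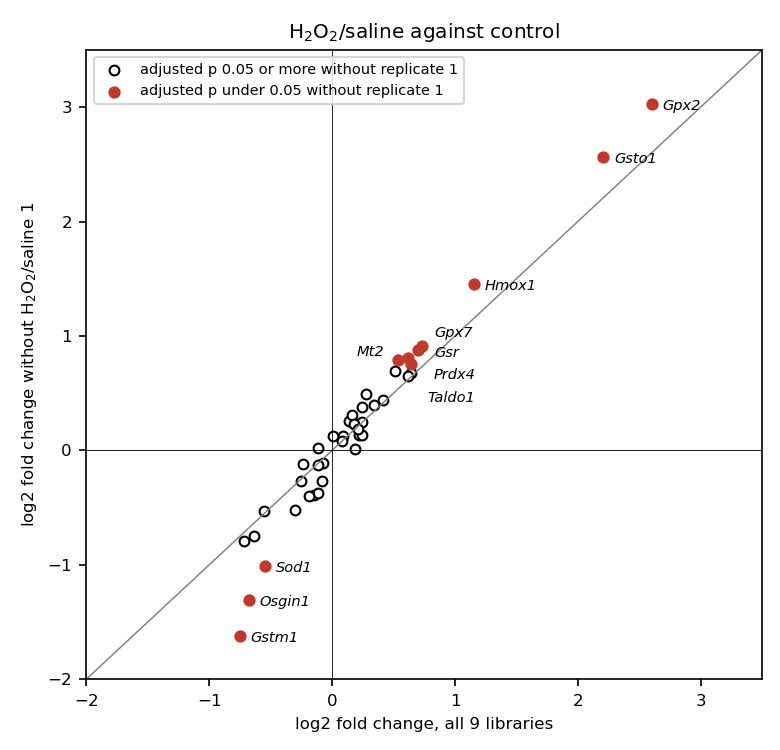
Log2 fold change of the 42 genes for H2O2/saline against control with all 9 libraries (x axis) and without H2O2/saline 1 (y axis), with the line of equal values. The 11 filled points have an edgeR adjusted p under 0.05 without that library, and those of Gstm1, Osgin1 and Sod1 lie furthest from the line.

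H2O2/SB431542 against H2O2/saline gave 11 positive and 31 negative values, with a median of -0.23 against 0.02 over all tested genes, 48.3% of which were negative. At an unadjusted p under 0.05 there were 9 members, with 8.83% of all tested genes. Of these 8 were negative (Gsto1, Prdx4, Mt2, Gpx7, Prdx1, Gpx3, Sod3 and Mt1), against 4.98% of all tested genes in that direction, and Nfe2l2 was positive. The groups did not overlap for 12 members, with 15.9% of all tested genes, 11 of them lower in H2O2/SB431542, against 7.37%, and Nfe2l2 higher. Without H2O2/saline 1 the threshold was passed by 4 members, Gsto1, Mt2 and Prdx4 lower and Osgin1 higher, with 1.02% of all tested genes. The same 4 passed with replicates 2 and 3 alone, with 1.21% of all tested genes.

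**Figure D4:**
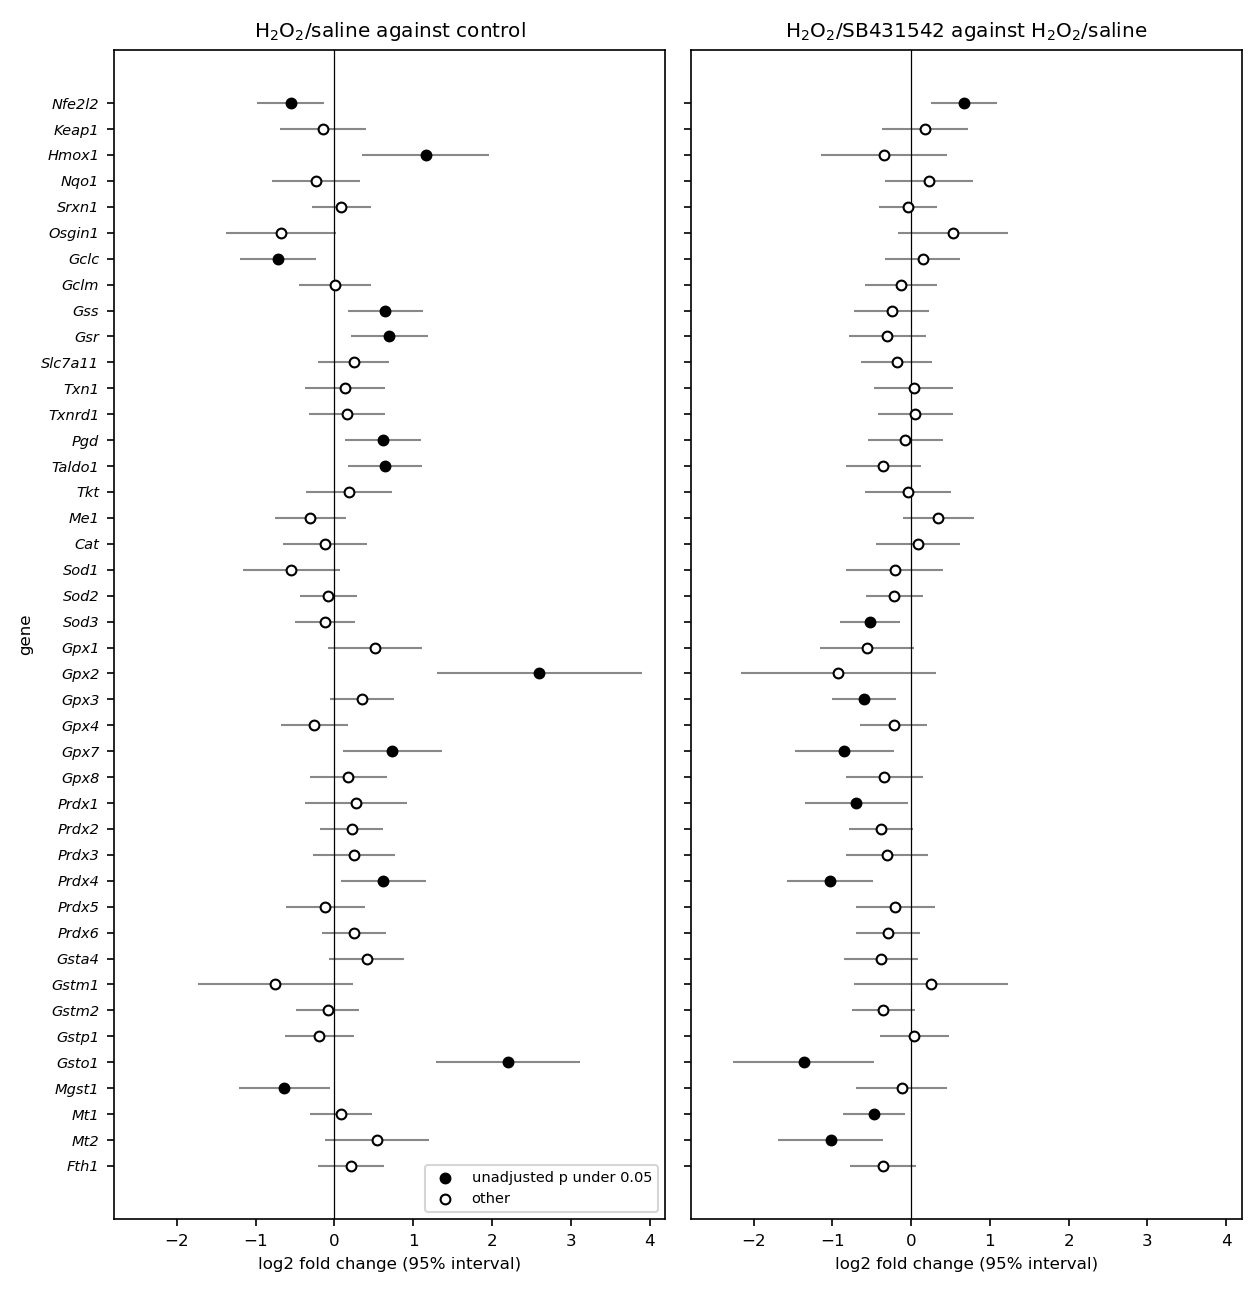
Log2 fold change (points) with its 95% interval (lines) from edgeR for the 42 genes, for H2O2/saline against control (left) and H2O2/SB431542 against H2O2/saline (right), filled where the unadjusted p is under 0.05. Both panels use the H2O2/saline libraries, with opposite sign, so a mirror image between them is in part built in. On the left 26 points lie right of 0, and on the right 31 lie left of it.

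H2O2/SB431542 against control gave 16 positive and 26 negative values (49.8% of all tested genes were negative), with a median of -0.09 against 0.00 over all tested genes. At an unadjusted p under 0.05 there were 9 members, with 7.61% of all tested genes, namely 3 positive ones against 4.36% (Gpx2, Hmox1 and Pgd) and 6 negative ones against 3.24% (Sod1, Sod3, Mgst1, Gclc, Gpx4 and Gstm2). The groups did not overlap for 10 members, with 14.5% of all tested genes. With replicates 2 and 3 alone Gpx2, Gsto1, Hmox1 and Pgd passed the threshold, all higher in H2O2/SB431542, with 2.32% of all tested genes.

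The summed marker RNA of several cell types also differed between the groups, with overlapping ranges for some. As background for the signs below, 48.6% of all tested genes were positive and 51.4% negative for H2O2/saline against control. For H2O2/SB431542 against control 49.8% were negative. Umbrella-cell markers summed to 10469 to 12603 CPM in H2O2/SB431542 libraries, 7594 to 16473 CPM in H2O2/saline libraries and 14285 to 21593 CPM in control libraries, with the lowest values in H2O2/saline 2 and 3. Markers of basal urothelium summed to 6925 to 8066 CPM in H2O2/SB431542 libraries, 7405 to 10939 CPM in H2O2/saline libraries and 2204 to 4080 CPM in control libraries. For H2O2/saline against control 4 of the 6 umbrella-cell markers were negative and 3 of the 4 basal markers were positive. None of these markers was at 0 in a group. Among the basal markers 1 passed the threshold, with a higher level (edgeR adjusted p = 0.0356), where 0.0518% of all tested genes passed. All 4 basal markers had an edgeR unadjusted p under 0.05, 3 higher and 1 lower, against 9.88% and 7.96% of all tested genes. The 6 neutrophil markers were near the floor, summing to 2.20 to 8.57 CPM in H2O2/SB431542 libraries, 2.57 to 14.7 CPM in H2O2/saline libraries and 0.799 to 2.22 CPM in control libraries. Of these markers 4 could be tested, and Ly6g and Mmp8 were too low to test. Smooth muscle markers summed to 25725, 24902 and 26331 CPM in H2O2/SB431542 libraries, 24177, 32375 and 30285 CPM in H2O2/saline libraries and 21859, 49176 and 42493 CPM in control libraries. Control 1 was the lowest of all 9 and control 2 and 3 were the highest, and all 6 smooth muscle markers were negative against control in both H2O2 groups, with median log2 fold changes of -0.57 for H2O2/SB431542 and -0.33 for H2O2/saline. Fibroblast markers summed to 6159, 3998 and 5066 CPM in H2O2/SB431542 libraries, 5337, 5359 and 5120 CPM in H2O2/saline libraries and 3065, 4168 and 2234 CPM in control libraries, with 5 of 6 positive against control in both H2O2 groups (medians 0.54 for H2O2/SB431542 and 0.71 for H2O2/saline). Endothelial markers summed to 149 to 198 CPM in H2O2/SB431542 libraries, 152 to 270 CPM in H2O2/saline libraries and 103 to 157 CPM in control libraries, with 4 of 5 positive for H2O2/SB431542 and 3 of 5 for H2O2/saline against control. The part of these cell types in the levels of the members, Gpx2, Gsto1, Gstm1 and Osgin1 included, was not tested.

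Further genes of the same pathways were measured for comparison, in 5 lists of 76 genes of which 75 could be tested. No gene of these lists passed the threshold in any comparison. Akr1b8, an aldo-keto reductase, had 107, 207 and 180 CPM in H2O2/SB431542 libraries, 531 and 495 CPM in H2O2/saline 2 and 3 but 98.4 CPM in H2O2/saline 1, and 71.6, 50.6 and 73.9 CPM in control libraries. It resembled Gsto1 in this order of libraries, with a log2 fold change of 2.52 ± 0.50 for H2O2/saline against control (edgeR adjusted p = 0.0600). Among 16 other Nrf2 target and detoxification genes 3 were positive and 1 negative at an unadjusted p under 0.05 in that comparison, where 9.88% of all tested genes were positive and 7.96% negative at that level, and their median was 0.01.

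The same shares, 9.88% and 7.96%, are the background for the other lists. Among 12 partners and regulators of Nrf2 none was positive and 2 were negative at that level, with the largest value for Bach2, a repressor related to Bach1, at -0.77 and an interval of -2.13 to 0.59. Of 22 other glutathione genes 3 were positive and 2 negative, led by Ggt5, a gamma-glutamyl transferase family member, at 1.72 ± 0.48 (edgeR adjusted p = 0.101). Of 15 other thioredoxin and repair genes 1 was positive and 1 negative. Sesn3, a sestrin, had the largest value there, with 56.4, 69.3 and 56.5 CPM in H2O2/SB431542 libraries, 46.9, 32.3 and 29.8 CPM in H2O2/saline libraries and 62.9, 48.7 and 84.1 CPM in control libraries. Of 10 other metal and iron genes 2 were positive and 1 negative, and the value of 1.40 for Heph, a copper-dependent iron oxidase, rested on H2O2/saline 3 at 6.51 CPM against 0.751 and 1.03 CPM in the other H2O2/saline libraries.

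For H2O2/SB431542 against H2O2/saline the largest values of these lists were 0.56 for Bach2, 1.81 for Abcc2, an organic anion exporter with at most 25 counts in a library, -1.02 for Ggt5, -0.91 for Glrx, glutaredoxin, and 0.65 for Slc40a1, the iron exporter ferroportin. For H2O2/SB431542 against control they were -0.32 for Cul3, the ubiquitin ligase scaffold that works with Keap1, 1.33 for Akr1b8, 1.53 for Chac1, which degrades glutathione, 0.84 for Sesn2 and 0.84 for Slc40a1.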

How the data were processed

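One hemisphere of the bladder gave the RNA, whose poly-A fraction was read by the authors as pairs of 150 bp on an Illumina Novaseq, with analysis in strand NGS (GRCm39 build per the labels). Neither the labels nor the methods name the aligner, the counting rule or the use of strand. The deposited table gives, for each of 9 libraries, expected counts in the columns that the authors mark raw (32% of nonzero values are exactly whole numbers) and the authors' normalized log2 values, centred on each gene's mean. Expected counts were rounded. edgeR 4.0.16 (R 4.3.3) kept 19314 genes by filterByExpr and fitted all 9 libraries with TMM scaling and 1 mean per group. Quasi-likelihood p-values were adjusted by Benjamini-Hochberg over these genes. CPM values use TMM factors (0.910 to 1.07). Depth was 37329213 to 41055328 counts. Intervals are 95% intervals of the fit, and ± is the SE of a log2 fold change.

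The design names biological replicates, but labels do not tie libraries to single mice, so p-values measure the spread between these samples. Deviations from group means of same-numbered libraries correlated at 0.312, 0.119 and 0.112 for H2O2/saline with control, at 0.514, 0.201 and 0.129 for H2O2/SB431542 with H2O2/saline, and at 0.321, 0.0399 and 0.0770 for H2O2/SB431542 with control. The first 2 sets were taken as paired on these correlations alone, which come from the counts being tested, and the block was fitted to all 9 libraries. Between replicates 2 and 3, libraries of different number correlated at 0.0528 and 0.0801, 0.183 and 0.121, and 0.129 and 0.0999 in the same order. In the last set these exceeded the values of the same number. A link among the libraries numbered 1 would also raise the other values.

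Alternatives were DESeq2 1.42.0, limma-voom (limma 3.58.1), other scalings and filters, the replicate block, 2 groups only, leaving out libraries and, added after seeing the data, limma on the authors' normalized log2 values. Members, marker lists and pathway lists were chosen with earlier results of these data known. All 42 members may be named. Values for every library are given for Nfe2l2, Keap1, members with an unadjusted p under 0.05 in a comparison and the 4 of largest fold change in each. Of other pathway genes, those of largest fold change per list are named. The script was tested on simulated counts for H2O2/saline against control, with 50 changed genes for each fold. It recovered 14% of 2-fold, 60% of 4-fold, 76% of 8-fold and 88% of 16-fold changes, with 6 false calls. Most 2-fold changes were thus missed in that simulation. Promoters are from RefSeq (GRCm38.p6).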

Additional observations from a re-analysis of the deposited data

How the results depend on the processing

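The 33 single-gene values recomputed under every alternative had an unadjusted p under 0.05 or were among the 4 largest fold changes of a comparison. They were thus chosen for their size in these same data, which makes a change of sign unlikely, and none had passed the threshold. None of them changed sign, and 578 of their recomputed values kept the side of the threshold while 49 newly passed it. Among the values of all 42 members, 9 changed sign under at least 1 alternative for H2O2/saline against control, 14 for H2O2/SB431542 against H2O2/saline and 16 for H2O2/SB431542 against control. With all libraries these values lay between -0.23 (Nqo1) and 0.09 (Srxn1), between -0.21 (Sod1) and 0.26 (Gstm1) and between -0.17 (Prdx2) and 0.16 (Txn1) on the log2 scale. The counts past the threshold moved much more. For H2O2/saline against control 10 genes passed, against 1415 by DESeq2, 1579 with no filter on low counts, 323 with at least 10 counts in every library, 4 with only the 2 groups compared, 925 with the replicate block and 2521 with replicates 2 and 3 only. Leaving out 1 library gave 0 to 1822 genes, 0 without control 2 or control 3 and 1822 without H2O2/saline 1. Members past the threshold there were 0, against 4 by DESeq2, 4 with no filter, 2 with at least 10 counts in every library, 3 with the replicate block and 14 with replicates 2 and 3 only, and leaving out 1 library gave 0 to 11. For H2O2/SB431542 against H2O2/saline 0 genes passed, against 27 by DESeq2, 274 with no filter, 1 with only the 2 groups compared, 234 with replicates 2 and 3 only and 2 with limma on the authors' normalized log2 values. Leaving out 1 library gave 0 to 197 genes. Members there were 0, against 4 with no filter and 4 with replicates 2 and 3 only, and 0 to 4 on leaving out 1 library. The replicate block gave 0 genes and 0 members, and beyond Gpx2, Gpx7 and Gsto1 for H2O2/saline against control it changed no call of a member. For H2O2/SB431542 against control 3 genes passed, against 5 with upper-quartile scaling, 183 by DESeq2, 439 with no filter, 6 with at least 10 counts in every library, 23 with only the 2 groups compared, 35 with the replicate block and 449 with replicates 2 and 3 only. Leaving out 1 library gave 0 to 83 genes. Members there were 0, against 2 with no filter and 4 with replicates 2 and 3 only, and 0 on leaving out any library. The cause of these shifts was not tested. Depth was ample for all 42 members, and the number of libraries, 3 per group, limits the precision.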
